A study of Mus musculus with 6 samples.

Results

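The mitochondrial ribosomal protein genes of the mouse kidney were compared between WT and Trpm2-/- mice after cisplatin. Members were the rows of the count table that are annotated as protein-coding and whose gene name starts with Mrpl or Mrps followed by a digit. This gave 78 genes among 54532, of which 49 (Mrpl) carry large subunit names and 29 (Mrps) carry small subunit names. Each of the 6 libraries came from the kidney of a C57BL/6J mouse aged 6 to 8 weeks that had received 18 mg/kg cisplatin 72 h earlier. There were 3 WT libraries (WT 1, WT 2 and WT 3) and 3 Trpm2-/- libraries (Trpm2-/- 1, Trpm2-/- 2 and Trpm2-/- 4), and no mouse without cisplatin entered the comparison. Age and strain are those of the labels, while the study's methods give an older range of ages and name C57BL/6. Trpm2 encodes a calcium-permeable cation channel. The Trpm2-/- allele lacks exons of this gene in the whole animal according to the study's methods, which also state that the WT mice were bought from a supplier and the Trpm2-/- line came from another university, so genotype and origin of the mice cannot be told apart.

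Mitochondria carry their own ribosome, the mitoribosome, which translates the few respiratory chain mRNAs that the mitochondrial genome encodes. Its large subunit forms the peptide bond and its small subunit decodes the mRNA. The 2 rRNAs come from the mitochondrial genome, while every ribosomal protein is encoded in the nucleus, made in the cytosol and imported. Some of these proteins have bacterial homologues and others were added during the evolution of mitochondria. The kidney tubule, and the proximal tubule above all, is rich in mitochondria, and cisplatin accumulates there.

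Total gene counts were between 14053307 and 17150089 per library. The counts of Trpm2 itself were 5, 5 and 27 in WT mice against 10, 16 and 20 in Trpm2-/- mice, a level that does not check the deleted exons. Genes of the mitochondrial genome took between 4.43% and 4.72% of the counts in WT mice and 7.91%, 7.95% and 11% in Trpm2-/- mice. All 8 proximal tubule markers, among them the phosphate transporter gene Slc34a1 and the endocytic receptor gene Lrp2, were lower in Trpm2-/- mice at an adjusted p under 0.05. Their summed level was between 2933 and 3687 CPM (counts scaled to a common library size) in WT mice and between 709.2 and 1205 CPM in Trpm2-/- mice. Of 6 markers of injured tubule, Krt20 and Sox9 were higher and none was lower, and their summed level was 4410 to 5746 CPM in WT mice and 7096 to 8327 CPM in Trpm2-/- mice. Of 2 thick ascending limb markers Umod was lower, and the sums over the 2 were 643.2 to 2021 CPM in WT and 160.5 to 733.8 CPM in Trpm2-/- mice. Of 5 collecting duct markers Aqp2 and Aqp3 were lower, while the other 3 had log2 fold changes above 0 (median of the 5, 0.01). The sums over the 5 were 1241 to 1524 against 780.6 to 861.3 CPM. Of 4 fibroblast markers Acta2 was higher, and the sums over the 4 were 35.77 to 59.02 against 43.63 to 105.7 CPM. None of 2 distal convoluted tubule (231.8 to 386.2 against 65.95 to 359.5 CPM), 3 podocyte (26.15 to 41.57 against 37.62 to 153.9 CPM), 4 endothelial (58.65 to 67.72 against 33.04 to 142.2 CPM) and 6 leukocyte markers (90.73 to 94.43 against 76.67 to 98.01 CPM) was called. The distal convoluted tubule and leukocyte sums cover 3 and 7 markers, untested ones included. Trpm2-/- 4 stood apart, with 153.9 podocyte and 142.2 endothelial CPM, against 40.15 and 35.62 in Trpm2-/- 1 and 37.62 and 33.04 in Trpm2-/- 2. It also had the highest fibroblast sum and the highest mitochondrial share (11%), and the member results without it are given below. In these bulk libraries fewer cells of a type and less RNA per cell cannot be told apart, and the part of these shifts in the values below was not tested.

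The genes lie on 17 chromosomes, with 11 of them on chromosome 11 and 8 on chromosome 17. Many start beside another gene. For 25 of the 78 genes (32.1%) a protein-coding gene on the opposite strand started within 500 bases, which held for 12.8% of the 13566 tested protein-coding genes looked up. Promoter windows from RefSeq (GRCm38.p6), 250 bases before to 50 bases after the start, were found for 69 of the 78 genes. In each window, 5 motifs known from promoters of nuclear genes for mitochondria were searched by exact letters on both strands. A gene was counted as holding a motif if any of its windows held it. The 69 genes had 75 windows, and genes with more windows have more chances of a match. No motif contains another, though their ends can overlap. The NRF1 motif GCATGCGC was present for 8 genes (11.6%), against 5.55% of 10651 tested protein-coding genes. The ETS motif CCGGAAGT, bound by factors such as GABP, was present for 12 genes (17.4% against 8.6%). The YY1 motif AAGATGGC was also present for 12 genes (17.4% against 5%). The ESRRA motif AAGGTCA was present for 4 genes (5.8% against 4.11%) and the SP1 motif GGGCGG for 34 genes (49.3% against 67%). At least 1 of the first 3 motifs was present for 29 genes (42%), against 17.8% of the tested protein-coding genes. In all 32851 windows of the RefSeq table the shares were 2.71% for NRF1, 3.89% for ETS, 2.75% for YY1, 4.72% for ESRRA and 35.7% for SP1. These matches describe letters in a window and do not show that a factor was bound.

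The 250 bases before the start are shown for 4 genes that mark the range of the values below, with a match to NRF1, ETS or YY1 in capitals. Mrpl16 and Mrps14 had the most negative log2 fold change of their subunit, Mrps22 had the highest of the small subunit, and Mrpl10 is a stalk protein gene whose level was nearly equal in the genotypes. The windows are chr19:11770165-11770414 for Mrpl16, chr1:160194965-160195214 for Mrps14 and chr11:97041332-97041581 for Mrpl10, each on the plus strand, and chr9:98601680-98601929 on the minus strand for Mrps22. None of these 3 was found for Mrpl16 and Mrps14, Mrpl10 holds the NRF1 motif, and Mrps22 holds the ETS motif close to its start.
Mrpl16: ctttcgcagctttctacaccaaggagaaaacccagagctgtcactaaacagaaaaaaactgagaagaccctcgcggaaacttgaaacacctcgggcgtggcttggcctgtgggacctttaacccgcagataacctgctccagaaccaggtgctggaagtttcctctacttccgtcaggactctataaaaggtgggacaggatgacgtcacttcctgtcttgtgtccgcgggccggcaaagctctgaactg
Mrps14: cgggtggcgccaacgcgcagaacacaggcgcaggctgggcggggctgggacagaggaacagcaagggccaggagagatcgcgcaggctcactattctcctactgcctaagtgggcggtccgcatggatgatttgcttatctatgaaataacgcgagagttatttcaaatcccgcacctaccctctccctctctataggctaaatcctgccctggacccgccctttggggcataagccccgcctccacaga
Mrpl10: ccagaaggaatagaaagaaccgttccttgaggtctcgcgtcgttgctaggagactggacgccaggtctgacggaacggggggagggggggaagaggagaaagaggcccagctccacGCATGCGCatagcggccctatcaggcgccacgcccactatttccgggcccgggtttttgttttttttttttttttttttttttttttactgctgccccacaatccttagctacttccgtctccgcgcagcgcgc
Mrps22: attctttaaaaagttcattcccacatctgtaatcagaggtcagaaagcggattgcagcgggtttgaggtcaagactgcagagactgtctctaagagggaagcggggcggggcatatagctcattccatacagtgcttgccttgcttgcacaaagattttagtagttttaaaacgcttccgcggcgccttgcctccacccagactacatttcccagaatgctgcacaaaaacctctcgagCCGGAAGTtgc

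Of the 78 genes, 77 (48 large subunit and 29 small subunit genes) passed the filter on low counts. Mrpl53 had 0 counts in all 6 libraries, which allows up to 3 counts or 0.175 to 0.213 CPM per library. All 75-base windows of its transcript also occur in Gm42688, a protein-coding gene that covers 88% of its exon bases on the same strand, so reads from Mrpl53 could not be assigned to it alone. The absence of counts is therefore no measure of its expression.

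The tested genes were mostly lower in Trpm2-/- mice. Of the 77, 71 had a log2 fold change (Trpm2-/- minus WT) below 0, 45 of 48 in the large subunit and 26 of 29 in the small subunit. The median was -0.39 in the large subunit and -0.37 in the small subunit, beside 0.02 over all 15816 genes tested. The middle part of the distribution, between the quartiles, ran from -0.54 to -0.21. The shift was therefore modest for most members, and 25 of them lay within 0.25 of 0. At an adjusted p under 0.05 (edgeR quasi-likelihood test, Benjamini-Hochberg over all genes tested), 9 large subunit genes (18.8%) and 5 small subunit genes (17.2%) fell, and none rose. Over all genes tested, 7.28% were called lower and 4.74% were called higher. The libraries of the genotypes did not overlap, with Trpm2-/- lower, for 35 of the 77 genes (45.5%), 21 in the large and 14 in the small subunit, beside 16.8% of all genes. At an unadjusted p under 0.05, 26 large and 14 small subunit genes were lower and none was higher. No member passed the study's threshold of an absolute log2 fold change above 1 with p under 0.05, which 4.1% of all genes passed downward and 3.5% upward.

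The number of calls depended strongly on single libraries, while the sign of the medians did not. Without Trpm2-/- 2, 18 large and 13 small subunit genes were called. Without Trpm2-/- 4 the calls were 4 and 0, with medians of -0.39 and -0.34. Leaving out Trpm2-/- 1, WT 2 or WT 3 left 1 large and 0 small subunit genes, and leaving out WT 1 left 8 and 3. Over all genes, 2059 of 16281 were called without Trpm2-/- 2 and 1813 of 16251 without Trpm2-/- 4, against 1902 of 15816 in the reported fit. The calls over all genes were 1269 of 16325 without Trpm2-/- 1, 697 of 16421 without WT 2, 630 of 16338 without WT 3 and 1512 of 16375 without WT 1. The medians stayed between -0.5 and -0.28 for the large subunit and between -0.48 and -0.24 for the small subunit in these fits. Between 69 and 73 of the 77 genes stayed below 0.

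**Figure D1:**
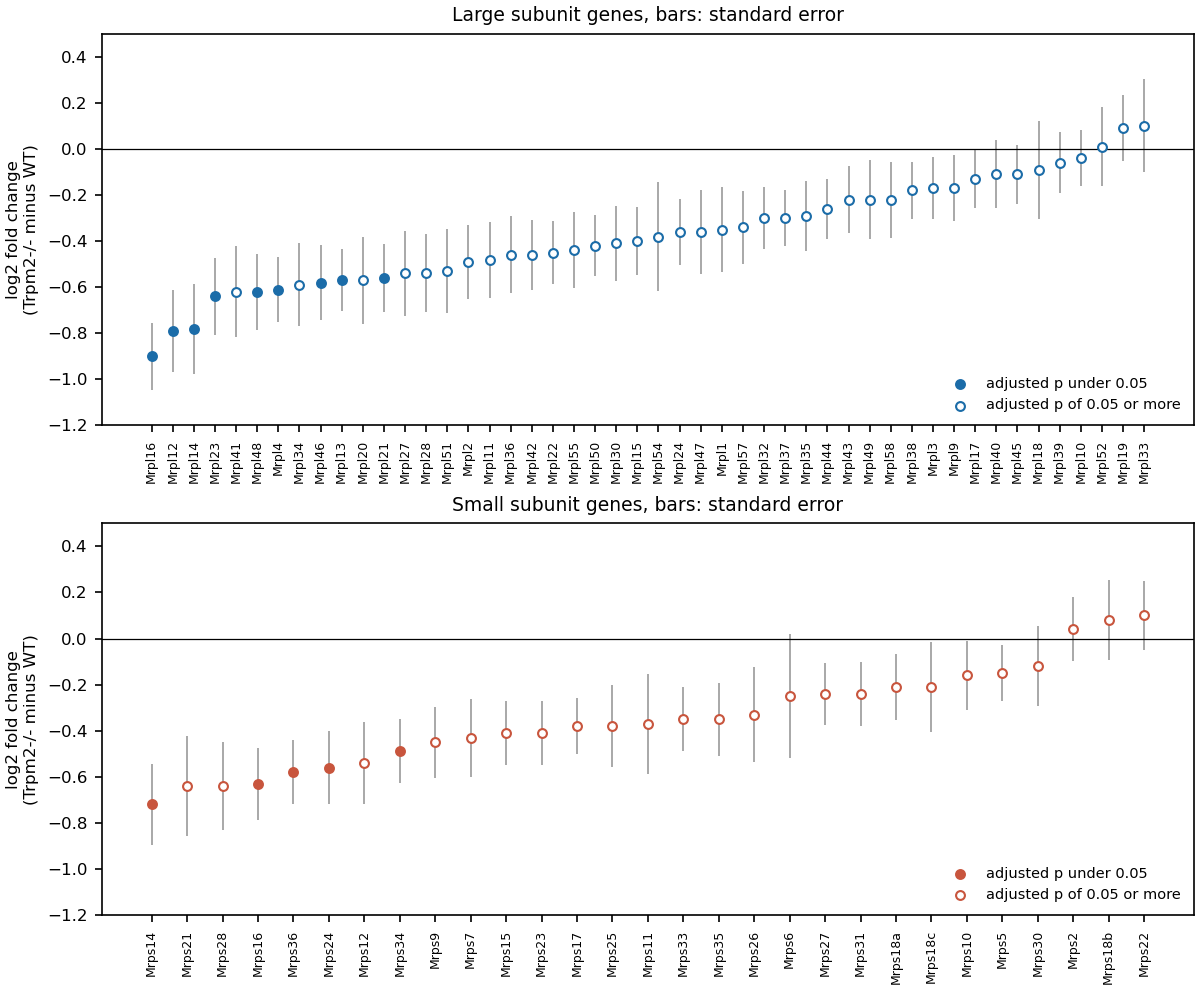
Log2 fold change (Trpm2-/- minus WT) with its standard error for the 48 large subunit and 29 small subunit genes tested, sorted within each subunit. Filled points mark the 9 and 5 genes at an adjusted p under 0.05, all below 0, and 6 genes lie above 0.

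The libraries were not alike within a genotype. Taking log2(CPM + 0.5) of each gene minus its WT mean, the large subunit genes averaged -0.16, 0.09 and 0.07 in WT 1, 2 and 3. They averaged -0.52, -0.18 and -0.42 in Trpm2-/- 1, 2 and 4. The small subunit genes gave -0.13, 0.07 and 0.06 in WT mice and -0.53, -0.17 and -0.36 in Trpm2-/- mice. In both subunits each Trpm2-/- library was below each WT library, but Trpm2-/- 2 and WT 1 were almost level. Trpm2-/- 2 was the highest Trpm2-/- library for 60 of the 77 genes, and WT 1 was the lowest WT library for 66. Over all genes tested the same average was between -0.04 and 0.01 in every library. The members took 0.448%, 0.486% and 0.493% of the counts in WT mice and 0.34%, 0.461% and 0.389% in Trpm2-/- mice. The proximal tubule sums were 2933, 3027 and 3687 CPM in WT 1, 2 and 3 and 907.8, 709.2 and 1205 CPM in Trpm2-/- 1, 2 and 4. WT 1 was the lowest WT library in member level and in this sum. Trpm2-/- 2 had the highest member level and the lowest proximal tubule sum of its genotype. The relation between the 2 measures was not tested.

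**Figure D2:**
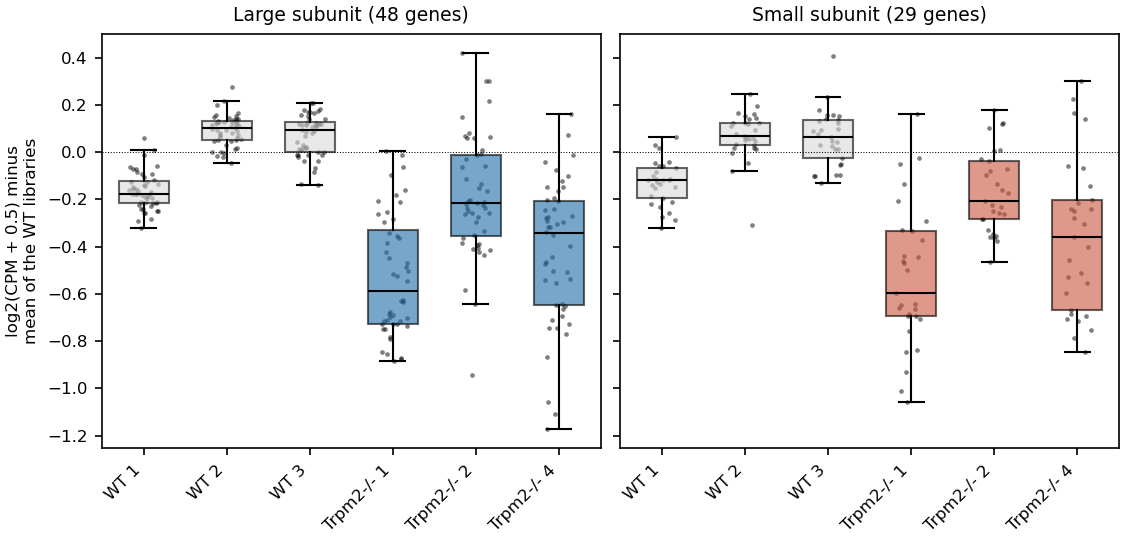
Log2(CPM + 0.5) minus the mean of the WT libraries, for each of 48 large and 29 small subunit genes (points) in each library, with boxes for the quartiles, lines for the medians and whiskers for values within 1.5 interquartile ranges. Trpm2-/- 1 and Trpm2-/- 4 sit well below the WT libraries, and Trpm2-/- 2 lies close to WT 1.

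Among large subunit genes with bacterial homologues, Mrpl16 was the clearest. Its CPM were 56.9, 69.9 and 61.7 in WT mice and 38.6, 32.3 and 29.8 in Trpm2-/- mice. The genotypes were well separated, and Trpm2-/- 2 was no exception here. The log2 fold change was -0.90 (SE 0.145, adjusted p = 0.00549), and Mrpl16 was called in all 20 fits (the reported one and 19 alternatives). The homologue of its protein in bacteria sits near the peptidyl transferase centre.

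Mrpl12 encodes the stalk protein that contacts the translation factors. Its CPM were 109, 125 and 107 in WT mice and 61.8, 83.7 and 52.3 in Trpm2-/- mice. It fell by 0.79 on the log2 scale (SE 0.178, adjusted p = 0.0214). Mrpl10, whose protein holds the stalk to the ribosome, had 63.9, 75.9 and 68.7 CPM in WT mice and 66.3, 69 and 67.3 CPM in Trpm2-/- mice. Its genotypes overlapped, with a log2 fold change of -0.04 (SE 0.121, adjusted p = 0.864). The difference between the 2 genes was not tested.

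Mrpl14 had 65.3, 78.9 and 73.3 CPM in WT mice and 39.7, 55.2 and 31.8 CPM in Trpm2-/- mice, with a log2 fold change of -0.78 (SE 0.195, adjusted p = 0.0318). Its protein belongs to the face of the large subunit that meets the small subunit. Mrpl4 had 97.5, 121 and 123 CPM in WT mice and 67.8, 75.4 and 79.8 CPM in Trpm2-/- mice (log2 fold change -0.61, SE 0.139, adjusted p = 0.0216). Mrpl13 had 76.1, 90.5 and 89 CPM against 54.5, 63.8 and 53.5 CPM (log2 fold change -0.57, SE 0.134, adjusted p = 0.0246). In each of these genes the highest Trpm2-/- library stayed below the lowest WT library. Mrpl21 (-0.56, adjusted p = 0.0381) and Mrpl23 (-0.64, adjusted p = 0.0367) completed the fallen genes with bacterial homologues. For Mrpl23, 75.4% of the 75-base windows of the transcript also occur in the pseudogene Mrpl23-ps1, so its value is uncertain.

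The other 2 large subunit genes that fell, Mrpl46 and Mrpl48, encode proteins that are specific to mitochondria and lie in the central protuberance. Mrpl48 had 39.2, 54.6 and 55.3 CPM in WT mice and 29.5, 31.3 and 36 CPM in Trpm2-/- mice (log2 fold change -0.62, SE 0.164, adjusted p = 0.0383). Mrpl46 had 38.5, 43.1 and 46.3 CPM in WT mice and 25.8, 35.1 and 24.7 CPM in Trpm2-/- mice (log2 fold change -0.58, SE 0.164, adjusted p = 0.0487). Mrpl46 is close to the threshold, and it was called in 9 of the 20 fits. Of 29 tested large subunit genes with bacterial homologues 7 fell, with a median log2 fold change of -0.45, and of 19 mitochondria-specific ones 2 fell, with a median of -0.30. The difference between these medians was not tested.

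At the other end, Mrpl33, Mrpl19 and Mrpl52 were the large subunit genes above 0. Mrpl33 had 80.7, 110 and 95.5 CPM in WT mice and 73.9, 127 and 106 CPM in Trpm2-/- mice (log2 fold change 0.10, SE 0.202). The order of its libraries followed neither genotype, and its sign turned in 3 alternatives. Of its 75-base windows 25.99% also occur in Gm43809, so its value is uncertain. Mrpl19 had 24, 24.2 and 20.9 CPM against 22.8, 26.8 and 24.2 CPM (0.09, SE 0.143), and 36% of its exon bases are covered by Gcfc2 on the opposite strand. Mrpl52 had 83.9, 109 and 111 CPM against 88.6, 124 and 93.8 CPM (0.01, SE 0.171), and its sign also turned in 3 alternatives. None of these differences exceeded the spread between mice, and neither did those of Mrpl10 (above) and Mrpl39 (-0.06, SE 0.132, adjusted p = 0.799), a mitochondria-specific protein gene.

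Other large subunit genes of known role did not pass the test. Mrpl45 encodes the protein that anchors the mitoribosome to the inner membrane, and it had 79.9, 79.4 and 78.8 CPM in WT mice and 66.5, 83.1 and 71.7 CPM in Trpm2-/- mice (log2 fold change -0.11, SE 0.127, adjusted p = 0.634). Mrpl44, which is related to RNase III, had 29, 34.1 and 32.1 CPM against 26.3, 26.3 and 26.7 CPM. Its genotypes did not overlap, but the difference of -0.26 (SE 0.13) gave an adjusted p of 0.218. Mrpl58, a peptidyl-tRNA hydrolase that frees stalled peptides, had a log2 fold change of -0.22 (SE 0.165, adjusted p = 0.416). Per length, Mrpl34 was the most abundant large subunit transcript with a mean of 116 FPKM in WT mice, followed by Mrpl54 with 82.4 FPKM. Neither passed the test, at -0.59 (adjusted p = 0.0617) and -0.38 (adjusted p = 0.328). Mrpl19 and Mrpl3 were the least abundant with 3.7 and 5.09 FPKM, and Mrpl3, which lies near the peptidyl transferase centre in bacteria, had a log2 fold change of -0.17 (adjusted p = 0.449).

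In the small subunit, Mrps14 had the lowest log2 fold change. Its CPM were 65.1, 85.9 and 87.7 in WT mice and 38.9, 57 and 48.6 in Trpm2-/- mice. It fell by 0.72 on the log2 scale (SE 0.176, adjusted p = 0.029). Mrps16 had 57.2, 65.9 and 67.6 CPM in WT mice and 35.3, 49.8 and 38.4 CPM in Trpm2-/- mice (-0.63, SE 0.157, adjusted p = 0.0319). Both proteins have bacterial homologues. Mrps24, the homologue of bacterial S3 at the entry of the mRNA channel, had 86.2, 103 and 95.6 CPM against 58.3, 79 and 56 CPM (-0.56, SE 0.16). Its adjusted p of 0.050 lies just under the threshold, and it was called in 9 of the 20 fits. Of its exon bases 15.4% are shared with Urgcp on the same strand.

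Mrps34, a mitochondria-specific protein gene, had 39.8, 42.4 and 35.8 CPM in WT mice and 28.8, 30.5 and 24.5 CPM in Trpm2-/- mice (-0.49, SE 0.139, adjusted p = 0.0483). It was called in 6 of the 20 fits. Of its exon bases 63.4% are also covered by Mapk8ip3 on the opposite strand and 37% by Nme3 on the same strand, so reads may be shared. Mrps36 had 40, 44.3 and 43.2 CPM against 26.9, 32.6 and 25.8 CPM (-0.58, SE 0.138, adjusted p = 0.0269). Although named as a mitoribosomal protein, Mrps36 is now known as a component of the 2-oxoglutarate dehydrogenase complex. Of its 75-base windows 25.2% also occur in pseudogenes.

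**Figure D3:**
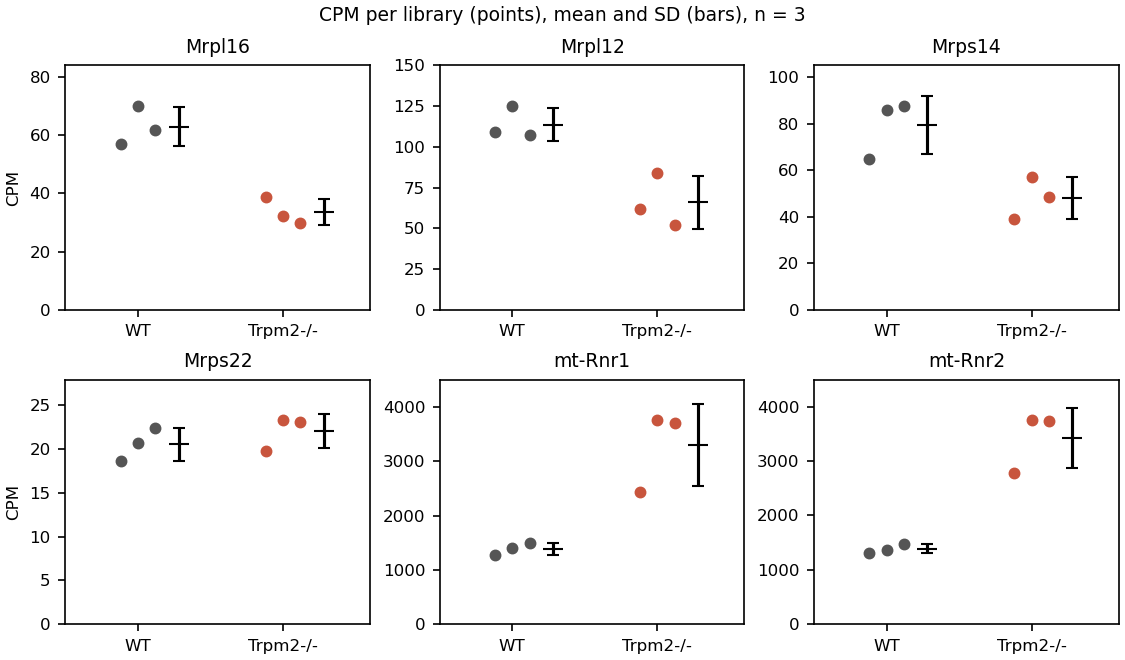
CPM in each library (points), with mean and SD (n = 3), for 4 ribosomal protein genes and the 2 mitochondrial rRNA genes, each on an axis that starts at 0. Mrpl16, Mrpl12 and Mrps14 are lower in every Trpm2-/- library, Mrps22 overlaps, and mt-Rnr1 and mt-Rnr2 are higher in every Trpm2-/- library.

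Among other small subunit genes, Mrps21 was the most abundant member per length, with 134 FPKM on average in WT mice. Its CPM were 91.8, 116 and 132 in WT mice and 53.6, 95.9 and 69.5 in Trpm2-/- mice, so that Trpm2-/- 2 was above WT 1. The log2 fold change was -0.64 (SE 0.217, adjusted p = 0.0875). Mrps28 had the same log2 fold change without overlap (SE 0.193, adjusted p = 0.0595). Mrps12, a protein of the decoding centre, had 37.5, 50 and 44 CPM against 28.6, 37 and 25 CPM (-0.54, SE 0.176, adjusted p = 0.0778). These 3 genes had log2 fold changes within the range of the called genes, with standard errors at the upper end of theirs or above.

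Mrps22, Mrps18b and Mrps2 were the small subunit genes above 0. Mrps22 had 18.6, 20.7 and 22.4 CPM in WT mice and 19.8, 23.3 and 23.1 CPM in Trpm2-/- mice (0.10, SE 0.151, adjusted p = 0.71). Mrps18b had 28.9, 33 and 27.8 CPM against 33.4, 24.4 and 36.9 CPM (0.08, SE 0.172), and Mrps2 had 34.7, 34.2 and 39.8 CPM against 35.5, 33.8 and 42.3 CPM (0.04, SE 0.139). The genotypes overlapped in all 3, and the signs of Mrps18b and Mrps2 turned under some alternatives. The value of Mrps18b is uncertain, since 26.67% of its 75-base windows also occur in Gm13552 and 30.5% of its exon bases are covered by Gm16279 on the opposite strand. Of the exon bases of Mrps18c 23.2% are shared with Gm43511 on the same strand. None of the 3 paralogues of bacterial S18 passed the test, with -0.21 for Mrps18a (adjusted p = 0.383), -0.21 for Mrps18c (adjusted p = 0.533) and 0.08 for Mrps18b (adjusted p = 0.812). Mrps18a and Mrps30 (-0.12, adjusted p = 0.712) keep a small subunit name, but their proteins sit in the large subunit. Mrps5 had a log2 fold change of -0.15 (adjusted p = 0.48). In the group with bacterial homologues 3 of 18 genes fell (median -0.40), and in the mitochondria-specific group 2 of 11 (median -0.35). Groups follow gene names, so Mrps36 counts here and among the 5 called small subunit genes, although its protein belongs to another complex.

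Between genes, level and change were loosely related. Across the 77 genes the log2 fold change had a Pearson correlation of -0.42 with the log2 of the WT FPKM, so that more abundant transcripts tended to be lower in Trpm2-/- mice. The correlation with log2 CPM, which is not divided by length, was -0.29. The points share the same 6 libraries and gene lengths, and the genes are not independent, so no p is given. FPKM here divides by the length of all exons of a gene joined, and long rare exons lower it.

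**Figure D4:**
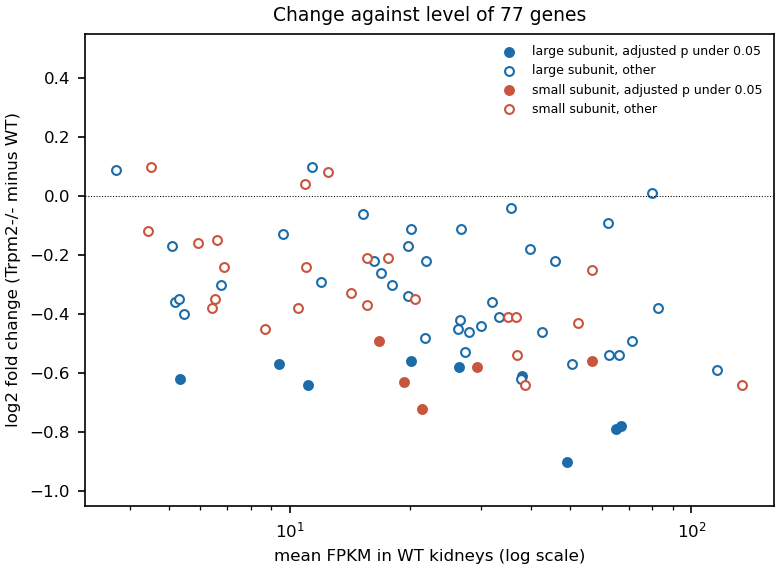
Log2 fold change (Trpm2-/- minus WT) against the mean FPKM of the WT libraries on a log scale, for 77 genes in large (blue) and small (red) subunits, with filled points for an adjusted p under 0.05. The most abundant genes lie below 0 with the exception of Mrpl52 at 80 FPKM, and the genes above 0 spread over lower levels.

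The promoter motifs were set beside the changes as a description. The 8 genes with the NRF1 motif had a median log2 fold change of -0.10 and none of them fell, whereas the 60 tested genes with a window and without it had a median of -0.40 and 11 fell. The 12 genes with the ETS motif had a median of -0.22 with 1 called, against -0.40 with 10 called for the other 56. For YY1 the medians were -0.34 and -0.37, with 1 of 12 called against 10 of 56. For ESRRA they were -0.55 and -0.36, with 1 of 4 called against 10 of 64. For SP1 they were -0.38 and -0.36, and the calls ran the other way, with 8 of 34 called against 3 of 34. Among the genes named above, Mrpl10, Mrpl33, Mrpl39 and Mrps18b hold the NRF1 motif. These groups were small and the differences were not tested.

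Genes that share a start region with a member were set beside it as a description. Of the 25 divergent partners 24 were tested, with a median log2 fold change of -0.01, and 12 of them were below 0. In WT 1 the partners ranged from 0.863 CPM (Lrrc46, SE 0.552) to 474 CPM (Fau), and the median counts each alike. Partners at or above the WT 1 level of Ptcd2 (31.6 CPM) were below 0, except Wdfy1 (0.49) and Ppp1r10 (0.00). This cut was chosen after the values were seen, and the difference was not tested. Mrpl46 and Mrps11 are partners of each other and members themselves. Of the 24 partners 3 fell, beside 7.28% of all genes tested called lower. They were Klc4 beside Mrpl2 (-0.54), Ptcd2 beside Mrps27 (-0.53) and Mrpl46 beside Mrps11. Members with a divergent partner had a median of -0.38 and the 52 without had -0.37. Mrps12 starts 172 bases from Sars2, the mitochondrial seryl-tRNA synthetase gene, which had a log2 fold change of -0.29 (adjusted p = 0.335). Pairs outside the rule for named genes were named after their values were seen.

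The remaining parts of the mitoribosome are a few proteins with other names and the rRNAs. Of 5 mitoribosomal protein genes with other names, Dap3, a GTP-binding protein of the small subunit, fell. Its CPM were 90.4, 108 and 102 in WT mice and 63.2, 69.8 and 55.8 in Trpm2-/- mice (-0.67, SE 0.136, adjusted p = 0.0142). Aurkaip1 (-0.57, adjusted p = 0.0609), Gadd45gip1 (-0.48, adjusted p = 0.0536) and Chchd1 (-0.35, adjusted p = 0.147) did not pass, and Ptcd3 had 0.08 (adjusted p = 0.802).

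Both rRNAs of the mitoribosome rose. The 12S rRNA of the small subunit, mt-Rnr1, had 1280, 1400 and 1490 CPM in WT mice and 2440, 3760 and 3710 CPM in Trpm2-/- mice (log2 fold change 1.25, SE 0.204, adjusted p = 0.00577). The 16S rRNA of the large subunit, mt-Rnr2, had 1310, 1370 and 1480 CPM in WT mice and 2780, 3750 and 3740 CPM in Trpm2-/- mice (1.30, SE 0.181, adjusted p = 0.0034). Every Trpm2-/- library was above every WT library in both genes. Of 12 tested mitochondrial mRNAs 5 rose and none fell, with a median log2 fold change of 0.68, beside 4.74% of all genes tested called higher. How rRNA was handled in library preparation is not given in the sources used here, and the counts of mitochondrial rRNA depend on it.

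Of the factors that build the mitoribosome, 4 of 29 fell and none rose (median -0.30), beside 7.28% of all genes tested called lower. These were Mrm2, which methylates the 16S rRNA (-0.85, adjusted p = 0.038), the GTPase gene Mtg1 (-0.64, adjusted p = 0.0406), Malsu1 (-0.58, adjusted p = 0.0306) and Ngrn (-0.47, adjusted p = 0.0464), all with roles in the large subunit. Of 15 mitochondrial translation factors 3 fell (median -0.33). They were Tufm, the elongation factor that brings aminoacyl-tRNA (-0.58, adjusted p = 0.0319), Gfm1, which moves the ribosome along (-0.55, adjusted p = 0.0295), and the initiation factor Mtif3 (-0.55, adjusted p = 0.0405). Tufm had 117, 141 and 153 CPM in WT mice and 99.5, 93.7 and 82.2 CPM in Trpm2-/- mice, with no overlap.

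Of 20 genes for mitochondrial tRNA charging 2 fell (median -0.19), beside 7.28% of all genes tested called lower. Fars2, the phenylalanyl-tRNA synthetase gene, had 32.7, 34.8 and 34.2 CPM in WT mice and 19, 19.9 and 18.4 CPM in Trpm2-/- mice (-0.83, SE 0.129, adjusted p = 0.00502). The libraries of each genotype were tightly grouped. The other was Gatb, a subunit of the enzyme that completes glutaminyl-tRNA (-0.70, adjusted p = 0.015). Of 19 genes of mitochondrial DNA expression and maintenance only Hsd17b10, a subunit of mitochondrial RNase P, fell (-0.73, adjusted p = 0.0071), with a median of -0.20. The counts of 2 of 20 and 1 of 19 lie near the share over all genes.

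Transcription regulators of these genes mostly did not pass the test. Of 9, Myc rose, with 45.3, 47.9 and 48.6 CPM in WT mice and 68.2, 74.6 and 80 CPM in Trpm2-/- mice (0.65, SE 0.122, adjusted p = 0.00981). Gabpb1, a subunit of the ETS factor GABP, had 0.35 (adjusted p = 0.104). Esrra had -0.43 (adjusted p = 0.112), and the coactivator gene Ppargc1a, named outside the rule, had -0.46 (adjusted p = 0.182). These 2 were the only ones below 0, and the median of the 9 was 0.14. Of the 7 above 0, Nrf1 (0.14, adjusted p = 0.567), Gabpa (0.12, adjusted p = 0.66) and Yy1 (0.18, adjusted p = 0.34) did not pass. The genotypes did not overlap for Yy1.

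Beside the members, nuclear respiratory chain genes had a lower median and cytosolic ribosomal protein genes a higher one. Of 78 tested nuclear respiratory chain genes 58 fell and none rose, with a median of -0.80, beside 7.28% of all genes tested called lower. Of 89 cytosolic ribosomal protein genes none was called in either direction by edgeR, with 2 lower and 0 higher at an unadjusted p under 0.05, and their median was -0.16. This list was filled by a name pattern and also holds Rpl7l1 and Rps19bp1, which are not cytosolic ribosomal proteins, and pseudogene-named rows such as Rps12-ps3. Of the 2 lower genes 1 is Rpl7l1 (-0.38, adjusted p = 0.0701). The cytosolic sums cover all 94 genes of the list, untested ones included. The summed CPM of the cytosolic genes were 36900, 47120 and 45420 in WT mice and 33900, 48260 and 35530 in Trpm2-/- mice. Those of the 77 members were 4415, 5241 and 5183 in WT mice and 3364, 4420 and 3700 in Trpm2-/- mice. Within each genotype, WT 1 was the lowest WT library and Trpm2-/- 2 the highest Trpm2-/- library in both sums. The part of this shared library spread in the member calls was not tested. The counts of calls in these lists also depended on single libraries: 77 genes were called over the related lists, against 22 without WT 3, 26 without WT 2 and 46 without Trpm2-/- 1.

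**Figure D5:**
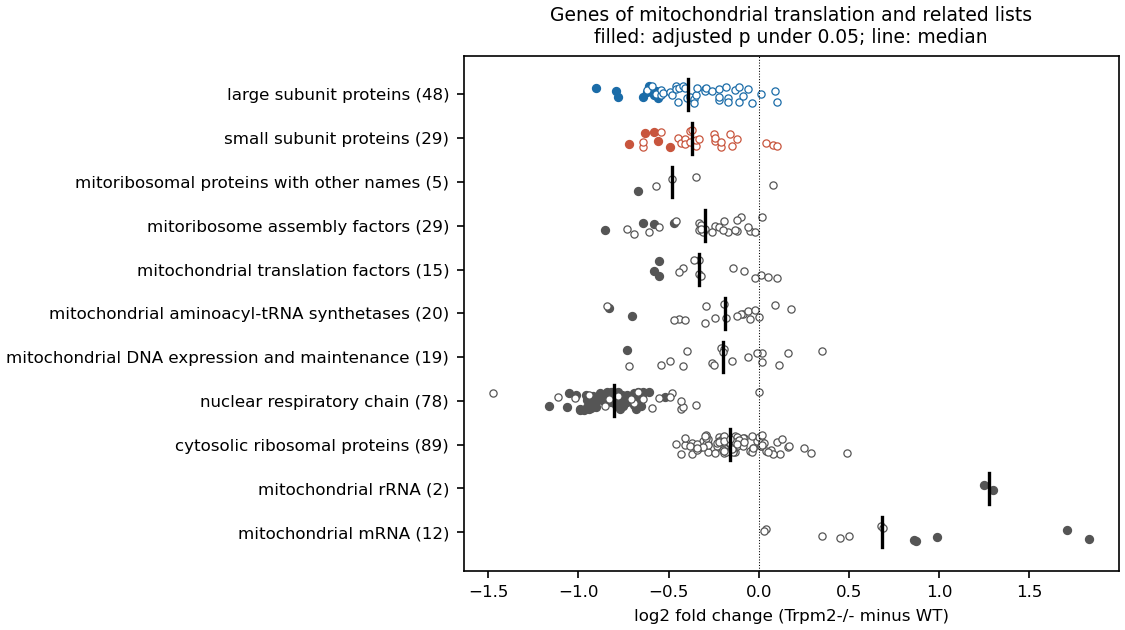
Log2 fold change (Trpm2-/- minus WT) of every tested gene in the member groups and the related lists, with the number of genes tested in parentheses, filled points for an adjusted p under 0.05 and a line for the median. The 48 large and 29 small subunit genes centre on -0.39 and -0.37, between cytosolic ribosomal protein genes at -0.16 and nuclear respiratory chain genes at -0.80, while mitochondrial rRNA and mRNA lie above 0.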

How the data were processed

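RNA from the kidneys of 3 WT and 3 Trpm2-/- mice was sequenced after Trizol extraction. The authors deposited a table of gene counts (whole reads per gene, without normalization) and a table of FPKM values for the same 54532 genes, which the authors scaled by gene length and a library total. Per the labels, the submitters' processing notes name HISAT2, StringTie and mm9, with no role. The counting tool and the strand setting are not given in the sources used here. Positions of most genes were those of GRCm38, and the annotation used here was GENCODE mouse release 21 (GRCm38).

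The test was run in edgeR 4.0.16 (R 4.3.3) on the 15816 genes that filterByExpr kept, with TMM library sizes, which CPM values use too. It was a two-sided quasi-likelihood test of genotype with Benjamini-Hochberg adjustment over all genes tested. Genes were called at an adjusted p under 0.05. The standard error was derived from each log2 fold change and its F value. Depth was 14053307 to 17150089 counts per library, and limits for counts of 0 use 3 counts and cover counting error only. P-values measure the spread between these mice, 3 per group.

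The members, the related lists and the markers were chosen with earlier results of these data known. Most lists were compiled by hand, and their counts and medians are descriptions. In each subunit, the named genes are the 5 lowest and 5 highest log2 fold changes, the called genes without overlap (up to 15), the 2 highest and 2 lowest by WT FPKM, the untested gene, and genes of known role. In each related list up to 3 genes of smallest p were named. Ngrn, Chchd1, Ptcd3, Nrf1, Gabpa, Yy1, Rpl7l1 and marker genes were named after their values were seen. Name patterns filled the lists of the respiratory chain and cytosolic ribosome. The alternatives were DESeq2 size factors, upper quartile scaling, no filter, a mean of at least 1 CPM, limma-voom (limma 3.58.1), the Wald test of DESeq2 1.42.0, protein-coding genes only, limma on FPKM values as log2 with a pseudocount of 1 or 0.1, omission of the mitochondrial genome, a gene length offset, the replicate number as a block, and omission of each library. A GC content offset was added after the data were seen. The tests were checked on simulated counts. In these edgeR recovered 10.4% of the changed genes at a 1.5-fold change, 78.4% at 2-fold and 100% at 4-fold. The simulated spread between libraries was set below that of the data. Replicate libraries differed by more than sampling noise. Promoter sequences were taken from RefSeq (GRCm38.p6), and shares of 75-base windows from the GENCODE transcripts.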

Additional observations from a re-analysis of the deposited data

How the results depend on the processing

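The medians of both subunits kept their sign and stayed within the spread between replicates under all 19 alternatives. With 9 large and 5 small subunit genes called in the reported fit, the large subunit count was 19 with no filter on low counts and 15 by the DESeq2 Wald test. The small subunit count was 8 with no filter, and 3 with upper quartile scaling, with limma on log2(FPKM + 1) or log2(FPKM + 0.1), and with the gene length offset. Over all genes tested the calls were 1902 of 15816, against 2954 of 28884 with no filter and 2539 of 15816 by the DESeq2 Wald test. Of the same 15816 genes, 1976 were called with upper quartile scaling and 1664 with the gene length offset. By limma on log2(FPKM + 1) and log2(FPKM + 0.1) the calls were 1574 and 1575. Leaving out each library in turn gave 1 to 18 large and 0 to 13 small subunit genes, 0 to 1 genes past the study's threshold, and 22 to 93 called genes over the related lists (77 in the reported fit). Over all genes the calls were 697 without WT 2, 630 without WT 3 and 1269 without Trpm2-/- 1. They were 1512 without WT 1, 2059 without Trpm2-/- 2 and 1813 without Trpm2-/- 4.

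Numbers 1 and 2 occur in both genotypes but mark different mice. The deviations of equally numbered libraries correlated at 0.10 and 0, within the range of -0.29 to 0.24 over all pairs of a WT and a Trpm2-/- library. The labels do not say whether equal numbers mark a shared preparation, and this was not tested. The replicate block takes up degrees of freedom in a design of 6 libraries. The library of each genotype without an equally numbered partner is alone in its block and adds nothing to the genotype estimate. The block fit therefore compares only the libraries numbered 1 and 2, as pairs. In it, 2 large and 0 small subunit genes, 38 genes of the related lists and 1002 genes in all were called.

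Genes near 0 turned sign. With the gene length offset Mrpl39 was at 0.06, Mrpl10 at 0.14, Mrpl33 at -0.03 and Mrpl45 at 0. Mrpl10 was at 0.03 with the GC content offset, and Mrpl52 at 0 with no filter. With the replicate block, which rests on the equally numbered libraries only, Mrpl39 was at 0.06 and Mrps18b at -0.11. Leaving out 1 library moved Mrpl52 to between -0.15 and 0.10, Mrpl33 to between -0.09 and 0.28, Mrps2 to between -0.05 and 0.10, Mrps18b to between -0.04 and 0.23, Mrpl10 to between -0.10 and 0.02, and Mrpl39 to between -0.15 and 0.02. The causes of these changes were not tested. Every tested member had a mean of at least 18.7 CPM in each genotype, far above the limit set by a count of 0.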

Other observations

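Among the tested genes, those with the shortest transcripts had the lowest median. The 24 genes whose transcript is under 1000 bases had a median log2 fold change of -0.48 with 5 called, the 28 genes of 1000 to 2000 bases had -0.32 with 6 called, and the 25 longer genes had -0.34 with 3 called. Across the 77 genes the Pearson correlation of the log2 fold change was 0.21 with log2 transcript length and -0.22 with GC content. With log2 gene length from the table, which joins all exons, it was 0.33 across the 77 genes and 0.20 across all genes tested. These are descriptions across genes that share the same 6 libraries. With the gene length offset 67 of the 77 genes stayed below 0, and the median of the large subunit minus that of all genes was -0.31, beside -0.41 in the reported fit.

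A few start regions paired a member with a gene that had a log2 fold change in the other direction or a larger one. Mrpl36 (-0.46) starts beside Ndufs6, a subunit of complex I, which had 145, 194 and 180 CPM in WT mice and 67.6, 128 and 44.8 CPM in Trpm2-/- mice (-1.11, adjusted p = 0.0516). Mrpl50 (-0.42) starts beside Zfp189, a zinc finger gene, which had 6.91, 5.59 and 7.06 CPM in WT mice and 13.2, 10.2 and 9.22 CPM in Trpm2-/- mice (0.74, adjusted p = 0.0633). Neither partner passed the test, and the pairs were chosen after their values were seen.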
